A study of Mus musculus with 12 samples.

Results

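The serotonin receptor genes Htr1a, Htr1b, Htr1d, Htr1f, Htr2a, Htr2c, Htr4, Htr5a, Htr6 and Htr7 were examined in the prefrontal cortex of mice after repeated cocaine. They were chosen by name from the serotonin receptor genes that couple to G proteins and make up 10 of the 40508 gene names in the deposited expression tables. The animals were male C57BL/6 mice, a common inbred strain, of 10 weeks of age at treatment. Cocaine was injected into the peritoneum at 20 mg/kg/day for 14 days, and the control mice received saline. Tissue was taken 2 h, 24 h or 7 d after the injections ended, which gives 6 groups, each with 2 libraries of polyadenylated RNA and 5 pooled mice per library (60 mice in all). The block cut from the tip of the brain held frontal association, prelimbic and orbital cortex together, so that a value is an average over these areas and over all their cell types.

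For each group the tables hold 1 value per gene, in FPKM (sequenced fragments divided by transcript length and by library size), pooled by the authors over both libraries. No spread between replicates can be computed from these values, so no test was run on them. The authors' own test columns were not used, and every difference below is a comparison of 2 pooled values. Differences were set beside those of all genes in the same table. A ratio is log2 of cocaine over saline, each after adding 0.1 FPKM, for genes with a mean of at least 0.5 FPKM over both groups. It was called past the fold limit at 0.32 or more in size, which is cocaine at least 25% above or 20% below saline. Pairs of levels are given as saline against cocaine. Each time point has its own table, assembled and normalized apart from the others, so a level set across times can also carry that difference.

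Serotonin is made by neurons of the raphe nuclei, whose axons reach the whole cortex, and cocaine blocks its transporter along with those of dopamine and noradrenaline. The receptors on the receiving cells differ in the G protein they use. Htr1 and Htr5a receptors couple to Gi/o, which lowers cyclic AMP and opens potassium channels, Htr2 receptors couple to Gq and phospholipase C, and Htr4, Htr6 and Htr7 receptors couple to Gs, which raises cyclic AMP. In the cortex, Htr2a and Htr1a are the best known, and act in opposite directions on pyramidal cells.

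The receptor genes spanned a wide range of levels, with Htr2a far above the rest and Htr4 and Htr1d near the bottom of the scale. Htr2a, the main excitatory serotonin receptor of cortical pyramidal cells, had a median of 12.7 FPKM over the 3 saline groups (range 12.01 to 15.6). Htr1a, the inhibitory receptor found on cortical neurons and on raphe neurons themselves, followed with a median of 4.09 FPKM (3.93 to 4.22). Htr2c came next at 3.68 FPKM (3.54 to 3.80), then Htr5a at 3.52 FPKM (3.44 to 3.64) and Htr7 at 3.08 FPKM (2.83 to 3.83). Lower still were Htr6 at 2.10 FPKM (1.46 to 2.27) and Htr1b at 1.20 FPKM (1.19 to 1.30). Htr1f reached 0.508 FPKM (0.291 to 0.557), Htr1d 0.0997 FPKM (0.0278 to 0.143) and Htr4 0.0386 FPKM (0.0310 to 0.0440). The saline ranges overlapped between Htr2c and Htr5a, between Htr5a and Htr7, and between Htr1d and Htr4, so the order within these pairs is not resolved. Between the other neighbours in the order the ranges were apart. Htr6 was listed on both strands and is ranked here by its minus-strand locus alone. With its plus-strand locus added, its saline values were 5.17 FPKM at 2 h, 5.44 at 24 h and 3.79 at 7 d. That range overlaps the one of Htr1a, so the place of Htr6 in the order depends on the locus taken.

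**Figure D1:**
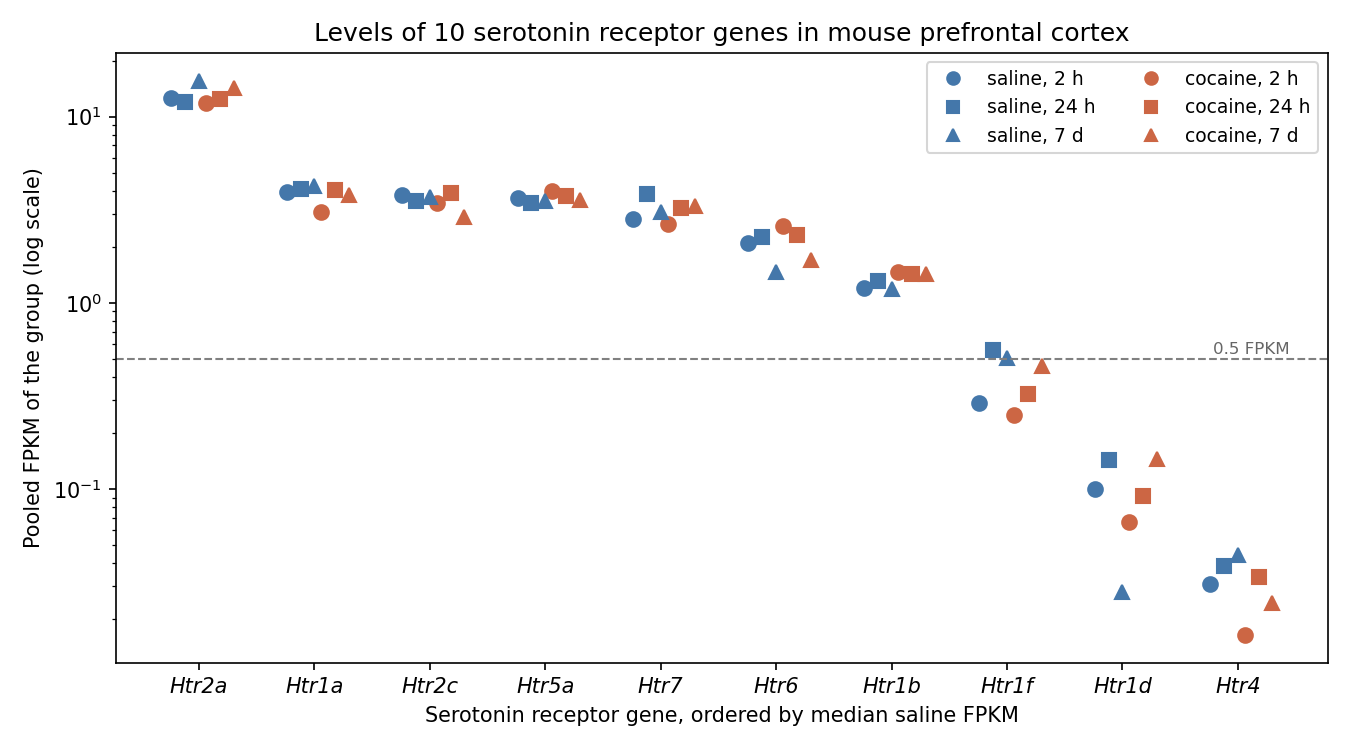
Pooled FPKM (log scale) of each serotonin receptor gene, with genes ordered by their median over the saline groups. Blue symbols are saline and orange symbols cocaine, with circles for 2 h, squares for 24 h and triangles for 7 d; the dashed line marks 0.5 FPKM. Htr2a lies at 11.8 to 15.6 FPKM in all 6 groups, and Htr1f, Htr1d and Htr4 lie near or below the line.

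Summed over all 10 genes, the receptors reached 30.6 FPKM after saline against 29.3 after cocaine at 2 h, 31.2 against 31.6 at 24 h, and 33.3 against 31.6 at 7 d. Htr2a alone made 38.5% to 46.8% of that sum, which holds only the minus-strand locus of Htr6. Only 7 of the 10 genes had a mean of at least 0.5 FPKM at the locus used, the same 7 at each time point, and the ratios below are for them. Htr1f, Htr1d and Htr4 did not reach it there at any time point, though a short separate locus of Htr1f at 24 h did (0.771 against 0.695 FPKM).

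Promoter sequence is given for the most abundant receptor gene (Htr2a), for those with a ratio past the fold limit (Htr1a, Htr2c) and for the gene listed on both strands (Htr6), to show how unlike these start regions are. Each run is the 250 bases before the transcription start that the RefSeq promoter table lists for the gene (build GRCm38.p6), written 5′ to 3′ on the strand of the gene, and capitals mark a GC box (GGGCGG, or CCGCCC as read from the other strand), the motif bound by Sp1. Htr2a lies on the plus strand at chr14:74640624-74640873, Htr1a on the plus strand at chr13:105443443-105443692, Htr2c on the plus strand at chrX:146962263-146962512 and Htr6 on the minus strand at chr4:139075571-139075820.
Htr2a: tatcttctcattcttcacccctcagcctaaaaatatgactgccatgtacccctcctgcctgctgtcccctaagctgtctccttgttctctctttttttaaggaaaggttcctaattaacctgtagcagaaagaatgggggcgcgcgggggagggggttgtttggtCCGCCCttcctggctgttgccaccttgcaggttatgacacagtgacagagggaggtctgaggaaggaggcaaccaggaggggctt
Htr1a: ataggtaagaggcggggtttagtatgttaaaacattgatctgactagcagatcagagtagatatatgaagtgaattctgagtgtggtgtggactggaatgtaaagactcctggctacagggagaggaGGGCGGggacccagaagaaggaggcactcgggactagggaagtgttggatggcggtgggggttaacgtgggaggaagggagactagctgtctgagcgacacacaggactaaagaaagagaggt
Htr2c: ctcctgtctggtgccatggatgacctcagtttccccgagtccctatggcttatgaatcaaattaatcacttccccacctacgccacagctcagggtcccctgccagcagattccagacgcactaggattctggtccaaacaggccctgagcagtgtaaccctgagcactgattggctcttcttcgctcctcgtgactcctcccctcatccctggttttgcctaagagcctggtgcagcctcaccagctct
Htr6: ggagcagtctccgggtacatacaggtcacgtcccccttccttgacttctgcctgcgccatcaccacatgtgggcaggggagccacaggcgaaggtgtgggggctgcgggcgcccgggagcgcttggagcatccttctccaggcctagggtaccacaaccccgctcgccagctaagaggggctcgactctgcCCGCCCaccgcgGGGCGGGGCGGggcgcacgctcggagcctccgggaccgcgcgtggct
The Htr6 window held 3 matches, 2 of them overlapping, while Htr2a and Htr1a held 1 each and Htr2c none. A GC box stood in 33.0% of the 27025 promoter windows of the same length. RefSeq windows were listed for 9 of the 10 genes, with a GC content from 49.2% in Htr1f to 82% in Htr7, beside a median of 52% over all windows. The listed start is not always the outermost of the gene: 2 bases of the Htr1d window, 49 of the Htr2c window and 231 of the Htr5a window lie inside the RefSeq gene, as does the whole Htr7 window. Among those whose sequence is not printed, Htr1d held 1 GC box and Htr7 held 1 match to TGACG, the core of the cyclic AMP response element, which stood in 17.8% of all windows. None of the 9 windows held the complete element TGACGTCA (1.6% of all windows), the E box CACGTG (6.04%) or the TATA box TATAAA (13.0%), searched on both strands.

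The counts of receptor genes past the fold limit were close to those of genes at large. At 2 h, 1 of the 7 measured members was past the fold limit, Htr1a, beside 14.7% of all 15361 genes tested. At 24 h none of the 7 was, beside 10.1% of 15603 genes, and at 7 d again 1 of 7, Htr2c, beside 15.2% of 15532 genes. Past 1.5-fold stood 0 of 7 members at each time, where 5.05%, 4.02% and 4.61% of all genes did so at 2 h, 24 h and 7 d. The median log2 ratio of the members was -0.087, 0.058 and 0.012 in the order of the time points, and that of all genes 0.022, 0.0074 and -0.010. In size without sign, the median member ratio was 0.14, 0.12 and 0.15, and that of all genes 0.12, 0.09 and 0.13. For comparison, the 5th percentile of all genes was -0.39, -0.32 and -0.42 and the 95th was 0.42, 0.33 and 0.36 in the same order, and every member ratio lay between them. Among genes of 1 to 20 FPKM, the range of most members, 15.7%, 9.5% and 14.1% were past the fold limit at these times.

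**Figure D2:**
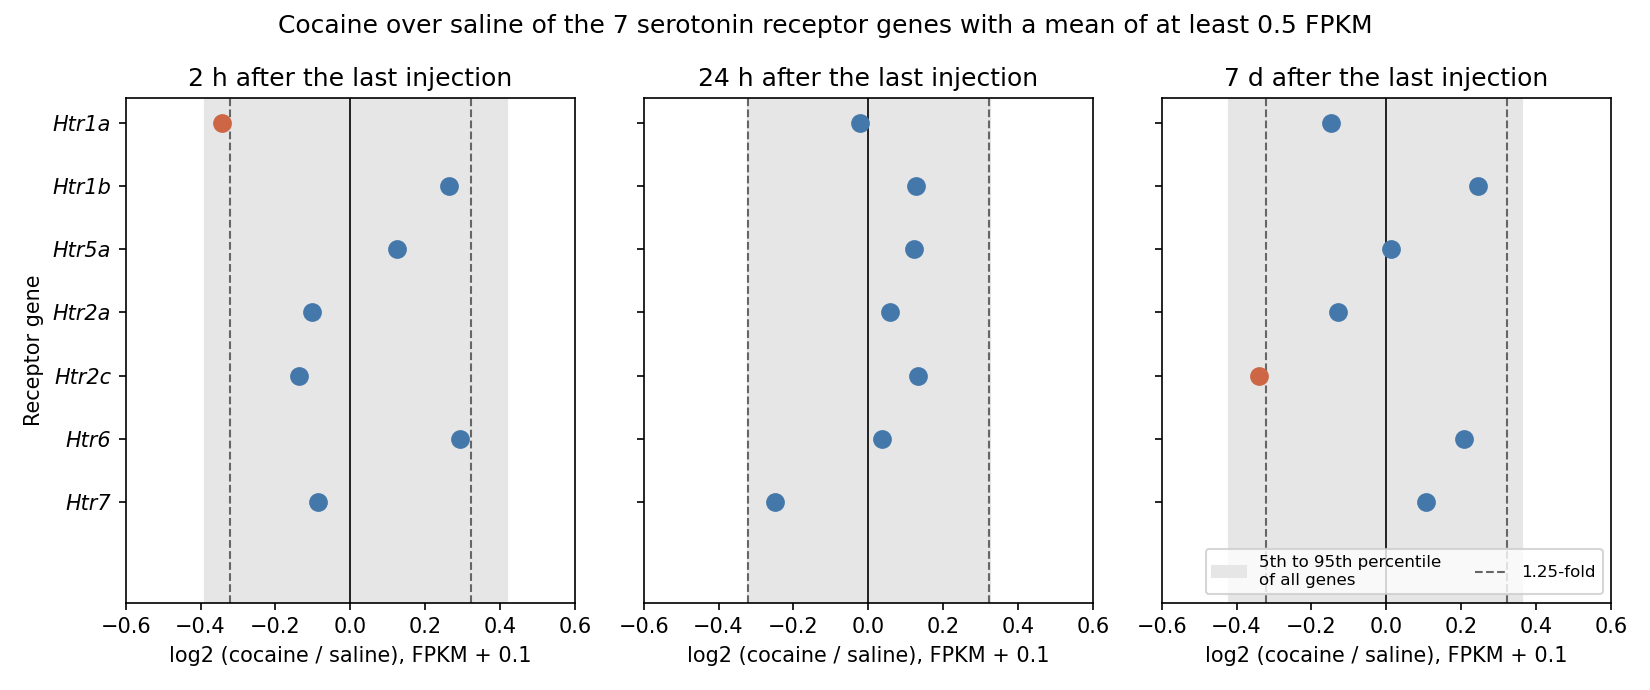
Cocaine over saline on the log2 scale (after adding 0.1 FPKM) for the 7 receptor genes with a mean of at least 0.5 FPKM, in one panel per time point. The grey band spans the 5th to 95th percentile of all genes and the dashed lines mark the fold limit; orange points, Htr1a at 2 h (-0.34) and Htr2c at 7 d (-0.34), are past it.

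Positions below are those of the loci in the 2 h table (GRCm38). Among the Gi/o-coupled receptors, Htr1a was lower after cocaine at 2 h and Htr1b was slightly higher at each time. Htr1a (plus strand, chromosome 13, 105443693 to 105448133, a gene of a single exon) measured 3.93 FPKM after saline against 3.07 after cocaine at 2 h, 4.09 against 4.03 at 24 h, and 4.22 against 3.80 at 7 d. The 2 h cocaine value was the lowest of the 6, and the cocaine values at 2 h and 7 d lay below all 3 saline values, which differed by no more than 1.07-fold. Htr1a thus had a log2 ratio of -0.34 (0.788-fold) at 2 h, and later of -0.02 and -0.15 (0.903-fold). Of all genes in the 2 h table, 13.4% had a ratio of at least that size. In bulk tissue, fewer cells that express a receptor and less RNA per cell cannot be told apart.

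Htr1b (minus strand, chromosome 9, 81628291 to 81646955), a receptor of axon terminals that reduces transmitter release, measured 1.20 FPKM after saline against 1.46 after cocaine at 2 h, 1.30 against 1.43 at 24 h, and 1.19 against 1.43 at 7 d. Its log2 ratios were 0.26 (1.2-fold), 0.13 (1.09-fold) and 0.24 (1.18-fold), none of them past the fold limit. All 3 cocaine values lay above all 3 saline values, which held for no other of the 7 genes. Over all genes measured at every time, 7.87% had their cocaine values all above or all below their saline values. Since 20.1% of genes at 2 h and 25.3% at 7 d had a ratio at least as large as that of Htr1b, its difference was common in size.

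Htr5a (plus strand, chromosome 5, 27841839 to 27855086), which lowers cyclic AMP and whose part in cortex is less well known, measured 3.64 FPKM after saline against 3.98 after cocaine at 2 h, 3.44 against 3.76 at 24 h, and 3.52 against 3.55 at 7 d. The log2 ratios were 0.13, 0.12 and 0.01, with cocaine the higher each time and by less at 7 d. Htr1f (minus strand, chromosome 16, 64924729 to 65105784), a receptor of the same class in deep cortical layers, fell short of the level filter with 0.291 against 0.251 FPKM at 2 h, 0.557 against 0.322 at 24 h, and 0.508 against 0.455 at 7 d. Its locus began at a different base at 7 d, and at 24 h a second short locus of that name on chromosome 16 (64921787 to 64923685) held 0.771 FPKM after saline against 0.695 after cocaine, so part of its reads were listed apart. Htr1d (plus strand, chromosome 4, 136423524 to 136444398), the close relative of Htr1b, had 0.0997 against 0.0663 FPKM at 2 h, 0.143 against 0.0920 at 24 h, and 0.0278 against 0.146 at 7 d. Its lowest and highest values both came at 7 d, and its saline values alone differed by 5.13-fold, so no direction was read from it. Summed over the Gi/o-coupled genes, the level was 9.16 against 8.83 FPKM at 2 h, 9.54 against 9.63 at 24 h, and 9.47 against 9.38 at 7 d, for saline and cocaine.

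The Gq-coupled pair differed in level and in where it moved. Htr2a (plus strand, chromosome 14, 74640831 to 74709481) measured 12.7 FPKM after saline against 11.8 after cocaine at 2 h, 12.01 against 12.5 at 24 h, and 15.6 against 14.3 at 7 d. The groups overlapped, and both 7 d values stood above the other 4, so the values differed more between time points than between treatments. Its log2 ratios were -0.10, 0.06 and -0.13, and the saline value at 7 d exceeded that at 24 h by 0.37 on the same scale.

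Htr2c (plus strand, chromosome X, 146962513 to 147197277), a receptor of neurons and, above all, of the choroid plexus, measured 3.80 FPKM after saline against 3.44 after cocaine at 2 h, 3.54 against 3.89 at 24 h, and 3.68 against 2.89 at 7 d. The 7 d cocaine value was the lowest of the 6 and the 24 h cocaine value the highest, while the 3 saline values differed by no more than 1.07-fold. The log2 ratio of Htr2c was -0.14 and 0.13 at first and -0.34 (0.79-fold) at 7 d, and 13.7% of genes had a ratio of at least that size at 7 d. Inside the Htr2c span stand 8 loci of small RNA genes, all listed at 0 in every group. Summed, Htr2a and Htr2c measured 16.5 against 15.2 FPKM at 2 h, 15.5 against 16.4 at 24 h and 19.3 against 17.1 at 7 d.

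Some markers of other cell types were past the fold limit in the same tables. For scale, that limit was passed by 14.7%, 10.1% and 15.2% of all genes, earliest time first. No marker list was tested against these shares. Of 12 choroid plexus genes, 9 were below 0.5 FPKM in each table, Otx2 was listed at 0 in the saline groups and at most at 0.0379 elsewhere, and the sum of 81.0 to 86.4 FPKM came mostly from Enpp2, which oligodendrocytes also express. Ttr, the leading choroid plexus transcript, measured 1.90 against 0.461 FPKM at 2 h, 1.8 against 1.10 at 24 h and 0.284 against 6.54 at 7 d. At 7 d 7 of the 12 choroid plexus genes, Ttr among them, were higher after cocaine and 5 lower, among these Folr1 (0.668 against 0.290 FPKM) and Sostdc1 (0.240 against 0.0409 FPKM), where Htr2c was lower. Of the 9 cortical layer genes measured, 2 were past the fold limit upward at 2 h and 1 downward at 24 h. At 7 d 1 was past the fold limit upward (Ctgf, 1.86 against 2.48 FPKM) and 1 downward (Fezf2, a gene of layer 5 neurons, 7.18 against 5.44 FPKM). Among the striatal genes, 10 of 12 were measured, with 2 higher and 3 lower past the fold limit at 2 h, 0 at 24 h, and 1 higher and 3 lower at 7 d, and their sum ran from 145 to 167 FPKM. In the meningeal and fibroblast list, 1 of 6 genes was lower past the limit at 24 h (Lum) and 4 were higher at 7 d (Col1a1, Col1a2, Slc6a13 and Igf2), and the sum ran from 63.5 to 78.6 FPKM over the groups. In the remaining lists, 1 gene each was past the fold limit in excitatory neurons at 2 h (Emx1, lower) and 7 d (Neurod6, lower), in astrocytes at 24 h (Gfap, lower) and in endothelial cells at 7 d (Flt1, higher), and none in oligodendrocytes, microglia or the olfactory bulb. Yet all 4 oligodendrocyte genes were lower after cocaine at 24 h (median log2 ratio -0.25, summed 727 against 598 FPKM). So were all 4 astrocyte, 3 microglia and 6 meningeal genes at 24 h, with medians of -0.21, -0.12 and -0.21, beside 0.0074 over all genes. At 2 h all 4 oligodendrocyte genes were lower again, while all 4 astrocyte and 6 meningeal genes were higher. Excitatory neuron genes summed to 1380 to 1630 FPKM, and all 5 were measured in each table. The part of these shifts in the receptor values was not tested.

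The Gs-coupled receptors turned on how Htr6 was read. Htr6, a receptor found mostly in forebrain, was listed on 2 loci with the same span, chr4:139059551-139079341 at 2 h and 24 h, and the order of the tables puts one with the genes of the minus strand and the other with those of the plus strand. RefSeq places Htr6 on the minus strand, and that locus was used. It measured 2.10 FPKM after saline against 2.60 after cocaine at 2 h, 2.27 against 2.32 at 24 h, and 1.46 against 1.71 at 7 d. The cocaine value was the higher at each time, with log2 ratios of 0.29 (1.23-fold), 0.04 and 0.21 (1.15-fold), and 17.0% of genes at 2 h had a ratio of at least that size. The plus-strand locus went the other way at 2 h, 3.07 against 2.21 FPKM (log2 ratio -0.46, past the fold limit), then 3.18 against 3.23 at 24 h and 2.32 against 2.17 at 7 d. Added together, both loci held 5.17 against 4.81 FPKM at 2 h, 5.44 against 5.56 at 24 h, and 3.79 against 3.88 at 7 d, with log2 ratios of -0.10, 0.03 and 0.03. The kit does not mark the strand of a read, so reads of the span cannot be told apart by strand, and the direction of Htr6 at 2 h depends on the locus taken.

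**Figure D3:**
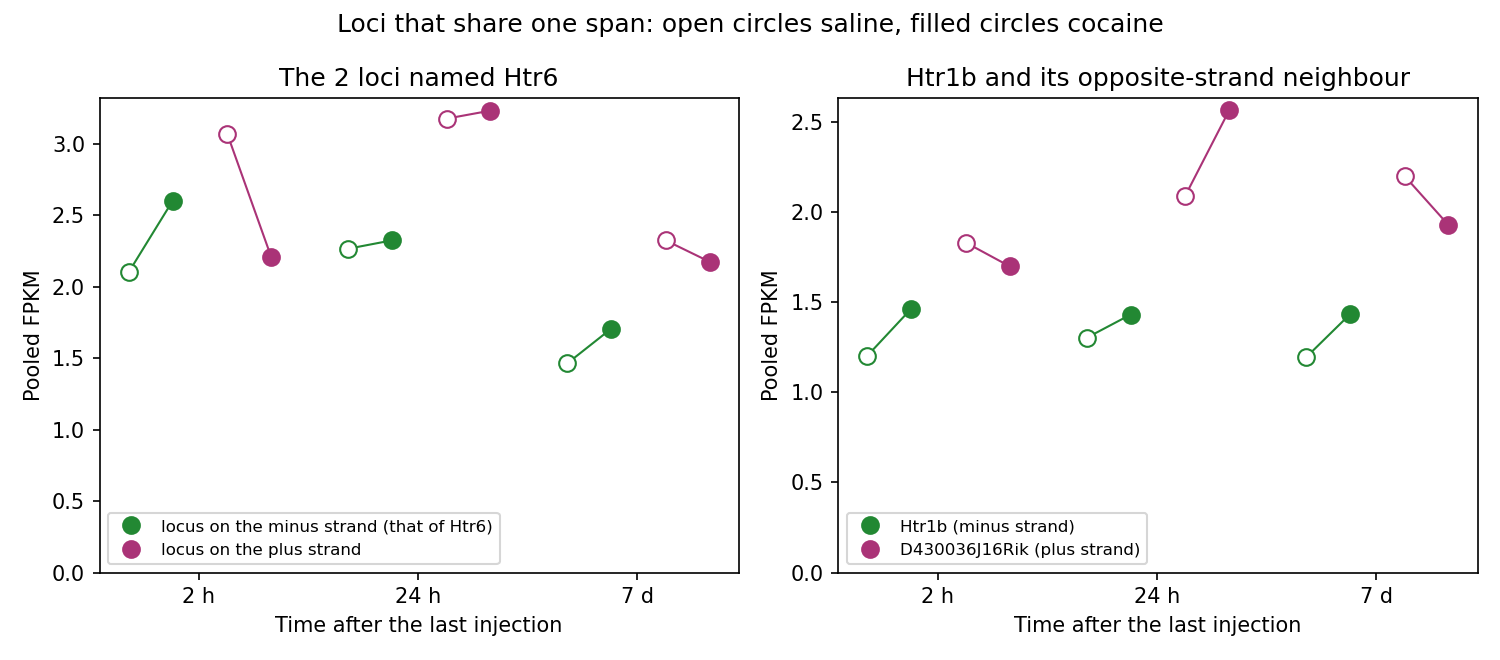
Pooled FPKM after saline (open circles) and cocaine (filled circles) at each time point, for the loci that share one span; strand was read from the order of the tables. Left, both loci named Htr6, of which the minus-strand one goes up at 2 h, 2.10 against 2.60, where the plus-strand one goes down, 3.07 against 2.21. Right, Htr1b, higher after cocaine each time, and D430036J16Rik of the other strand.

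Htr1b shared its span in a like way with D430036J16Rik, a transcript of the plus strand, while Htr1b lies on the minus strand. That transcript measured 1.83 against 1.70 FPKM at 2 h, 2.09 against 2.56 at 24 h and 2.2 against 1.93 at 7 d. It was thus lower after cocaine at 2 h and 7 d, where Htr1b was higher. How reads were split between them cannot be told from the tables, and with both added the log2 ratio was 0.06, 0.23 and -0.01. In each table, 220 to 630 gene names stood on several loci of the same span, so Htr6 was not alone in this.

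Htr7 (minus strand, chromosome 19, 35958374 to 36057533), a receptor that raises cyclic AMP and depolarizes cortical neurons, measured 2.83 FPKM after saline against 2.66 after cocaine at 2 h, 3.83 against 3.21 at 24 h, and 3.08 against 3.33 at 7 d. Its highest value was the saline group at 24 h, and the groups overlapped. The log2 ratios were -0.09, -0.25 (0.842-fold) and 0.11, and at 24 h 15.5% of genes had a ratio of at least the size of that of Htr7. Htr4, on chromosome 18, was barely detected, at 0.0310 against 0.0165 FPKM at 2 h, 0.0386 against 0.0339 at 24 h, and 0.0440 against 0.0243 at 7 d. Summed, the Gs-coupled genes measured 4.97 against 5.28 FPKM at 2 h, 6.14 against 5.57 at 24 h and 4.59 against 5.06 at 7 d. These sums hold only the minus-strand locus of Htr6. With its plus-strand locus added (3.07 against 2.21 FPKM at 2 h), the sum at 2 h would be lower after cocaine.

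Across the time points, 4 of the 7 genes kept one direction, Htr1a lower and Htr1b, Htr5a and Htr6 higher after cocaine. Of all 14951 genes measured at every time, 32.8% kept one direction. Htr6 no longer did with both of its loci added, nor Htr1b with the D430036J16Rik locus of its span added, nor Htr5a with a trend over transcript length taken out (-0.073 at 7 d). Htr2a, Htr2c and Htr7 changed direction between time points. No group of mice was followed over time, and each ratio has its own saline group.

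Some receptor genes differed between saline groups by as much as any of the 7 did between cocaine and saline. From 2 h to 24 h, Htr7 was higher by 0.42 on the log2 scale and was the only 1 of 7 members past the fold limit, beside 14.1% of all genes. From 2 h to 7 d, Htr6 differed by -0.49, again 1 of 7, beside 20% of all genes. Between 24 h and 7 d, where Htr1f also reached the level filter, 2 of 8 members were past the fold limit, Htr2a by 0.37 and Htr6 by -0.60, beside 22.1% of all genes. These differences, of other genes and all past the fold limit, were each larger than the ratio of Htr1a at 2 h or of Htr2c at 7 d. The saline values of Htr1a itself differed by at most 0.1015 on the log2 scale, and those of Htr2c by at most 0.0989. Differences between saline groups set tables that were normalized separately side by side, so the time of sampling and the table cannot be told apart.

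Among the remaining serotonin receptor genes, Htr5b at 2 h and Htr3a at 7 d were past the fold limit. Htr5b, a relative of Htr5a known from habenula, hippocampus and raphe, measured 0.302 against 0.996 FPKM at 2 h, a log2 ratio of 1.45 (2.73-fold). At 24 h it measured 0.296 against 0.377 FPKM, and at 7 d 0.348 against 0.318, all below the level filter. It reached the filter at 2 h only through its cocaine value, so a large ratio there is partly fixed by the filter, and Htr1d at 7 d (0.94) and Htr2b at 2 h (-0.74) had large ratios below it. Htr3a, the ion channel subunit of a class of cortical interneurons, measured 4.05 against 4.20 FPKM at 2 h, 3.50 against 3.61 at 24 h, and 3.30 against 4.25 at 7 d, where its log2 ratio was 0.36 (1.28-fold). None of the interneuron markers was past the fold limit at any time, with a sum of 419 to 504 FPKM. Htr2b and Htr3b stayed below the level filter.

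Genes that make, carry and break down serotonin had 1 of 10 measured members past the fold limit at 2 h, upward, and 1 of 9 at both 24 h and 7 d, downward, beside 14.7%, 10.1% and 15.2% of all genes. Gch1, which makes the cofactor of tryptophan hydroxylase, measured 0.442 against 0.806 FPKM at 2 h (0.74 on the log2 scale), and reached the level filter only there, through its cocaine value. Ddc, the decarboxylase that completes serotonin and dopamine synthesis, measured 2.71 against 2.13 FPKM at 24 h (-0.33) and 2.58 against 1.81 at 7 d (-0.49), after 2.13 against 2.65 at 2 h (0.30, not past the fold limit). Of the 5 listed transcripts of raphe neurons, whose cell bodies lie outside the cortex, 4 had a mean below 0.5 FPKM at each time. Slc18a2 was the exception, at 1.13 to 1.43 FPKM over the 6 groups. Gata3 was listed at 0 to 0.0169 FPKM. Slc6a4, the serotonin transporter that cocaine blocks, was listed at 0 to 0.0402 FPKM over the 6 groups, Fev at 0 to 0.0278 and Tph2, the neuronal tryptophan hydroxylase, at 0.246 to 0.469.

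**Figure D4:**
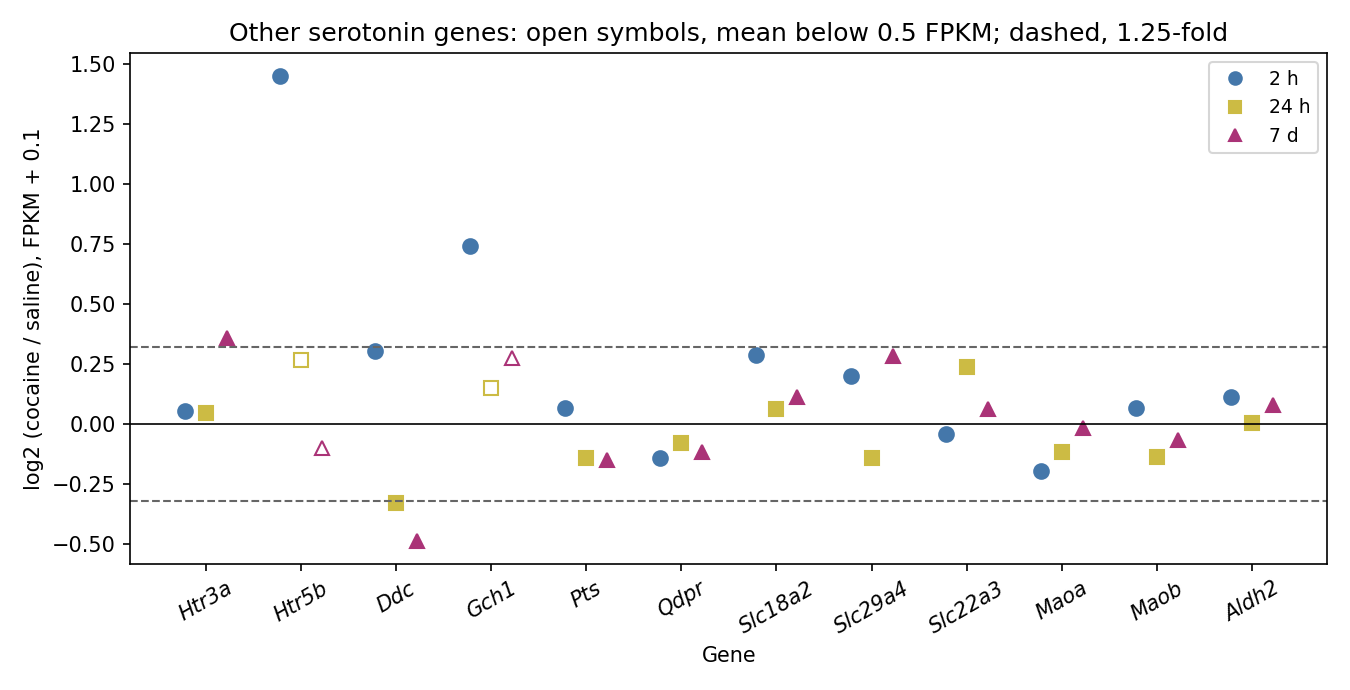
Cocaine over saline on the log2 scale (after adding 0.1 FPKM) for serotonin genes outside the receptor set that reached 0.5 FPKM at any time, with circles for 2 h, squares for 24 h and triangles for 7 d. Open symbols are genes with a mean below 0.5 FPKM and dashed lines mark the fold limit; of the genes drawn, Htr5b at 2 h stands highest at 1.45 and Ddc at 7 d lowest at -0.49.

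Downstream of the receptors, all 31 genes of the G protein, kinase, arrestin and effector list were measured and nearly all stayed within the fold limit. Of all genes, 14.7%, 10.1% and 15.2% were past that limit at 2 h, 24 h and 7 d. Adcy9, an adenylyl cyclase, was the only one of the list past it at 2 h, from 9.17 to 12.3 FPKM (0.42 on the log2 scale). None of the list was at 24 h. At 7 d S100a10, also called p11, a partner of Htr1b and Htr4 that brings them to the cell surface, went from 52.3 to 40.7 FPKM (-0.36). The median ratio of the list was 0.046, -0.0023 and 0.076 in the order of the time points, and that of all genes 0.022, 0.0074 and -0.010. Of the 31 genes, 23 were higher after cocaine at 2 h, 14 at 24 h and 23 at 7 d. Among all genes, 55.6%, 52.5% and 47.8% were higher at these times. The list summed to 1770 to 1930 FPKM over the groups, and no shares are given here for genes of like level.

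Some muscarinic and dopamine receptor genes were past the fold limit at 2 h and 24 h, and none at 7 d. The shares of all genes past it were 14.7%, 10.1% and 15.2% in the order of the time points. Of the muscarinic receptors, 4 of 5 were measured, with Chrm4 at 6.35 against 11.4 FPKM at 2 h (0.83 on the log2 scale) and 6.83 against 10.0 at 24 h, where Chrm2 measured 1.22 against 0.857. Dopamine receptor genes were low, with 1 measured at 2 h and 3 at later times. Drd1a was lower past the limit at 2 h, 0.925 against 0.648 FPKM (-0.46). Drd4 was lower past it at 24 h, 0.717 against 0.409 FPKM (-0.68). Both lie near the level filter. None of the 7 measured serotonin receptor genes had a ratio as large as that of Chrm4 at 2 h or 24 h.

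Likeness was read over the 6 pooled values by Pearson's r against 13590 genes, as a description only, since with 6 points shared by 3 tables high values are frequent. The gene most like Htr2a was Armcx6 (r = 0.997) and that most like Htr1a was Odf2l (0.996). Htr5a was nearest Gm6755 (0.995), Htr7 nearest Lmcd1 (0.990), Htr6 nearest Prkce (0.996) and Htr1b nearest Sv2c (0.995). The number of genes above 0.95 ran from 19 for Htr1b to 281 for Htr6. Within the receptor set the highest r of any pair was 0.63, for Htr1a with Htr7 and for Htr5a with Htr6.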

How the data were processed

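Per the labels, Illumina libraries were made with a kit that does not mark strand. The submitters' processing notes name CASAVA 1.8.2, Trimmomatic 0.32, TopHat2 2.0.12, Cufflinks 2.2.1 and Cuffdiff, with build GRCm38 (mm10). The deposited tables hold 1 FPKM per group and locus, which the authors estimated with Cuffdiff over both libraries. They also hold the authors' fold changes, test statistics, p-values and q-values, which were not used. Read counts, and so the depth behind a value, were not analysed here. Which column is saline followed from the study's supplementary tables.

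For a gene on several loci the longest was used, and for loci of one span that on the RefSeq strand, a rule chosen after the loci were seen. Strand was read from the order of loci, where 98.8% to 99.3% of genes matched RefSeq. Ratios were computed with pandas 2.3.3 and numpy 2.4.6. The code was run on simulated data with planted changes far past the fold limit, which does not show how that limit performs on these data. The genes and lists were chosen with earlier results of these data known. All members are named, and of each list at most 4 genes past the fold limit per time. Some genes that this rule names are not reported here. Other pseudocounts, filters, loci, centring and a length trend were tried.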

Additional observations from a re-analysis of the deposited data

Results flagged for a closer look

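Htr5b stands outside the set of receptor genes compared above, and its cocaine over saline ratio at 2 h was 1.45 on the log2 scale, from 0.302 to 0.996 FPKM, above the saline level of every time point (0.296 to 0.348 FPKM). It was picked out as a signal outside the main comparison, and its mean reached 0.5 FPKM only through the cocaine value. At 24 h and 7 d its values were 0.377 and 0.318 FPKM after cocaine. No spread between replicates is known for it.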

How the results depend on the processing

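Of 174 member ratios recomputed under other settings, 161 stayed within the spread of that gene over the saline groups and 13 moved. Many of the 161 could not move, since a filter leaves a ratio as it is and a choice between loci changed only Htr6. Htr6 at 7 d counted among those that stayed although its sign changed, because its saline values were spread widely. The sign differed in 8, none of them for a ratio that was past the fold limit as reported. Htr6 at 2 h became -0.46, itself past the limit, with the other locus, also where a choice by FPKM took it. It was -0.10 with both loci added. Htr6 at 7 d was -0.092 with the other locus, and Htr5a at 7 d was -0.073 with a length trend out. The count past the fold limit at 2 h (1) became 0 with a pseudocount of 1 FPKM or at 1.5-fold. Of all genes, 8.12% and 5.05% were past the limit under these settings. The count became 2 with the locus of highest FPKM or with ties between loci set by FPKM (14.7% each), where Htr6 came out at -0.46. At 24 h (0) it became 2 without a filter on low values (12.4% of all genes), through Htr1d and Htr1f. At 7 d (1) it became 0 with a pseudocount of 1 FPKM (8.85%) or at 1.5-fold (4.61%), and 2 without a filter (14.3%). It also became 2 with a trend over transcript length taken out, where Htr1b was at 0.37 and Htr2c at -0.42. The length used for Htr1b was 1273 nt, while its RefSeq gene spans 5542 bases, and how far its ratio rests on that length was not tested. With that trend out, 8.41% of the 12742 genes with a length were past the limit at 7 d, beside 15.2% of all 15532 as reported. The gene sets differ, so the fall cannot be laid to the trend alone. The 7 d median ratio of the members (0.012) became -0.058 without a filter, -0.092 with either choice of locus by FPKM and -0.073 with the length trend out. With that trend out, 55.2% of the genes with a length that were past the fold at 7 d were higher after cocaine. As reported, over all genes, it was 42.8%. Ties by FPKM, the added Htr6 loci and the length trend were chosen after seeing the data. The planned length trend on the files' build was not run for want of transcript lengths, and the one run used GENCODE M1 lengths matched by symbol, for 82.0% to 82.9% of genes. Other counts and medians moved under no setting. No paired analysis was possible because each group has 1 pooled value, and for the same reason no replicate could be left out. The pooled FPKM alone cannot show whether any of these ratios exceeds the difference between 2 libraries of one group.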
